A study of Mus musculus with 4 samples.

Results

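The genes of cell-matrix attachment described here are the integrin subunits, the laminin chains, the nidogens Nid1 and Nid2, and 3 genes of the attached machinery, Dst, Plec and Cd151. They were taken by gene symbol and make up 41 of the 23361 genes in the deposited table: 26 integrin subunits, 10 laminin chains, 2 nidogens and the 3 linkers. RNA-seq had been made from Nfatc1+ cells and from Shh+ cells of embryonic mouse hair pegs, the downgrowths that become hair follicles, to compare the cells at their upper and lower ends, with 2 libraries for each population. The genotype of the Nfatc1+ cells was Nfatc1-CreER::Rosa-stop-tdTomato::K14-H2BGFP and that of the Shh+ cells Shh-CreER::Rosa-stop-tdTomato::K14-H2BGFP, so that both carried a nuclear GFP driven by the keratin promoter K14 and a red reporter opened by a tamoxifen-dependent Cre under the named gene. For both populations, pregnant mothers received tamoxifen at E15.5, and cells with both colours were sorted from the back skin of embryos at E17.5. A red cell had expressed the driver gene at labelling, and its descendants stayed red whether or not they still did. Nfatc1+ cells were freed from whole skin with 16 min of 0.25% trypsin at 37°C. For the Shh+ cells, dispase at 0.4 mg/ml for 1 h loosened the epidermis, which was removed, and trypsin then acted for 10 min. Population and tissue release therefore cannot be told apart in any comparison given here, and it is not stated if a population's libraries came from separate animals, so the p-values measure only how these libraries varied, which may be technical. In sorted bulk cells, fewer cells of a type and less RNA per cell cannot be told apart either.

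Integrins are receptors of 1 alpha and 1 beta subunit that hold cells to the extracellular matrix and signal from it. In basal keratinocytes the alpha6beta4 pair sits in hemidesmosomes, where plectin and the epithelial form of dystonin tie it to keratin filaments, whereas pairs containing beta1 connect to actin. Laminins are secreted trimers of an alpha, a beta and a gamma chain that form the sheet under the epithelium, which hemidesmosomes grip. In the growing hair follicle this sheet separates the epithelium from the dermal papilla and dermal sheath.

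Attachment genes were more often higher in Nfatc1+ than in Shh+ cells, with large differences in a handful of integrin subunits and mostly small ones among the laminins. Values were FPKM, fragments scaled by transcript length and by library depth, which allow levels to be set beside each other between genes. A gene entered the test, made with limma on log2(FPKM + 0.5), when its FPKM averaged 0.5 or more over all 4 libraries, and a gene was called at a Benjamini-Hochberg adjusted p under 0.05 over all 12750 genes tested. Differences below are Nfatc1+ minus Shh+ on this log2 scale, where changes of genes with low FPKM come out too small. Folds are ratios of mean FPKM. Of the 29 attachment genes tested, 18 (62.1%) were called higher in Nfatc1+ cells, where 18.9% of all tested genes were. Another 4 (13.8%) had more RNA in Shh+ cells at the same threshold, which 18.1% of all tested genes did, and 7 were not called. In either direction 37.0% of all tested genes were called. Libraries of the populations did not overlap for 26 of the 29, where 70.7% of all tested genes had no overlap. Both Nfatc1+ libraries were above both Shh+ libraries for 21 (35.1% of all tested genes), and the reverse held for 5 (35.6%). The median difference was 0.50 over the 29 genes and −0.0018 over all tested genes. Among the 16 integrin subunits tested, 11 were called higher in Nfatc1+ cells and 2 in Shh+ cells. Among the 8 laminin chains tested, 3 were called higher in Nfatc1+ cells and 2 in Shh+ cells.

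**Figure D1:**
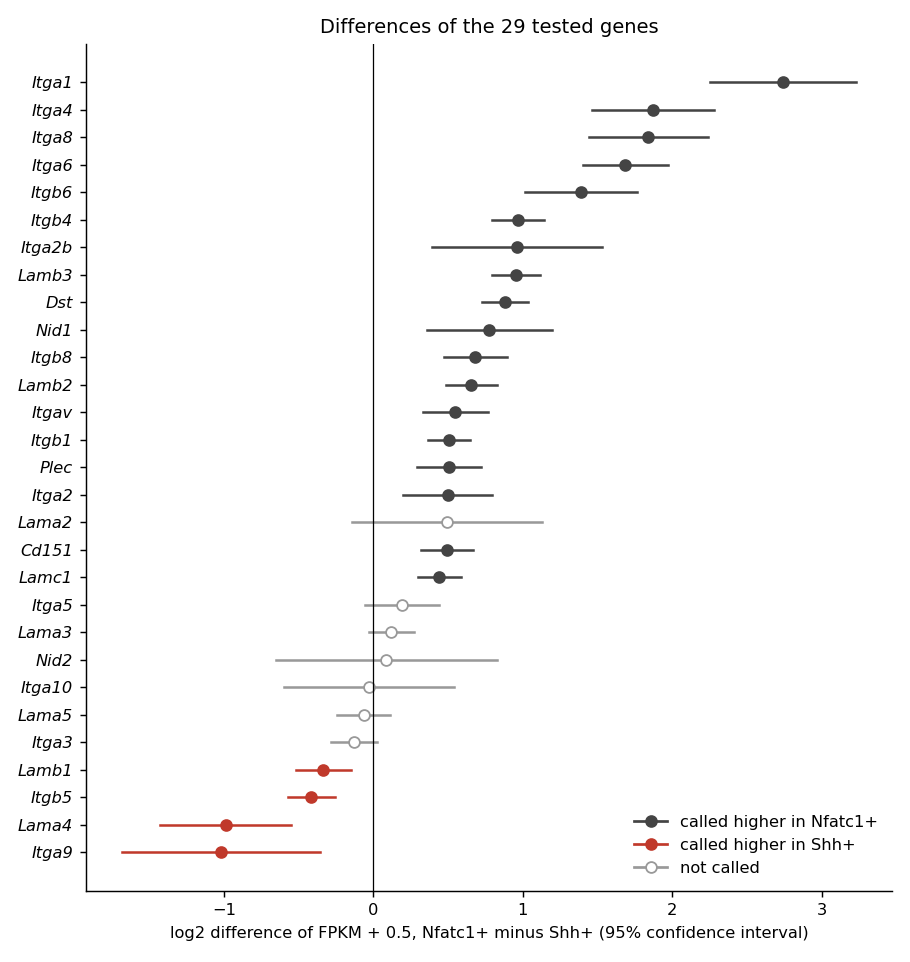
Differences of the 29 tested attachment genes, Nfatc1+ minus Shh+, as log2 of FPKM + 0.5 on the horizontal axis, with 95% confidence intervals from limma as bars. Dark points are the 18 genes called higher in Nfatc1+ cells, red points the 4 called higher in Shh+ cells and open points the 7 not called. Itga1 stands at the top at 2.74 and Itga9 at the bottom at −1.02.

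Only 6 of the called genes differed by at least 1 on this log2 scale. Itga1, Itga4, Itga8, Itga6 and Itgb6 did so with more RNA in Nfatc1+ cells, where 5.81% of all tested genes passed both limits, and Itga9 with more in Shh+ cells, where 4.77% did. Every one of them is an integrin subunit, but the set depended on the scaling, the libraries used and the pseudocount, the amount added to FPKM before the log. With a pseudocount of 0.1 FPKM, the laminin chain gene Lama4 (−1.085) and Itga2b (1.70) also passed both limits. With a pseudocount of 1 FPKM, Itga9 (−0.72) no longer did. Of the 6 genes named first, Itga6 was the only one above 10 FPKM in any library. To show what lies upstream of them, the 250 bases before the start site are printed for those with a RefSeq promoter entry, 5′ to 3′ on the strand of the gene (GRCm38.p6). Capitals mark matches to GGAAA (the core bound by NFAT proteins), CTTTG (the core bound by TCF/LEF proteins), GGGCGG (the GC box) or TGANTCA (the AP-1 element), each searched on both strands. Promoter positions were chr13:115101965-115102214 on the minus strand for Itga1, a collagen receptor subunit, chr2:79255176-79255425 on the plus strand for Itga4, a subunit binding fibronectin and VCAM-1, and chr2:12301945-12302194 on the minus strand for Itga8, a nephronectin receptor subunit. Those of Itgb6, the partner of alphav that activates latent TGF-beta, and of Itga9, a tenascin receptor subunit, were chr2:60722604-60722853 on the minus strand and chr9:118711442-118711691 on the plus strand, the last lying inside the Itga9 gene interval. The Itga8 window also reaches into its gene interval, which ends at 12301985.
Itga1: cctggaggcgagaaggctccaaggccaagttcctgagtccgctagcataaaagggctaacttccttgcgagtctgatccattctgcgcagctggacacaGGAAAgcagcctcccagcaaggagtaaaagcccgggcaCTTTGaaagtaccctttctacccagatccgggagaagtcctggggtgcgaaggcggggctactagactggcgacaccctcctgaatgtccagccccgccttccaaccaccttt
Itga4: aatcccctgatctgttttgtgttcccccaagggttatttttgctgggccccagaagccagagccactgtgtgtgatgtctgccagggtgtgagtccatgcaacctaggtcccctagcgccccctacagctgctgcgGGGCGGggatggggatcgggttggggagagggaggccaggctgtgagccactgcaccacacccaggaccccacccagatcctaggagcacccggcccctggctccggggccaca
Itga8: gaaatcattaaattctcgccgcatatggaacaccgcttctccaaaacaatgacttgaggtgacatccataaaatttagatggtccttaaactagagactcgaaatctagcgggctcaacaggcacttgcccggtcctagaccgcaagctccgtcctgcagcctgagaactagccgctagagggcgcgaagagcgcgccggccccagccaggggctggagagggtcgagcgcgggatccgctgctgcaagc
Itgb6: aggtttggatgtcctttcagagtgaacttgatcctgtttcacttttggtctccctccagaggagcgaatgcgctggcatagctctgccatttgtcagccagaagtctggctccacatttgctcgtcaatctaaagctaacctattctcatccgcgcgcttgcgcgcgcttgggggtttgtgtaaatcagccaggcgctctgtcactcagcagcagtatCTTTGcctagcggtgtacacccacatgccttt
Itga9: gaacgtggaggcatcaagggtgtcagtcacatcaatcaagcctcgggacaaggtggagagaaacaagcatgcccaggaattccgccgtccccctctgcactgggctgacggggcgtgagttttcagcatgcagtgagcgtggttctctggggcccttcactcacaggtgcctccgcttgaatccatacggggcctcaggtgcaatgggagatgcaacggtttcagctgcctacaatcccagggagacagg
The Itga1 window held 1 NFAT core and 1 TCF/LEF core, the Itga4 window 1 GC box and the Itgb6 window 1 TCF/LEF core. None of the letters searched was in the Itga8 or Itga9 window, nor in a second Itgb6 window that RefSeq gives (chr2:60673694-60673943, not shown). RefSeq promoters matched 26 of the 41 genes with 31 windows. Of these windows, 17 (54.8%) held the NFAT core, against 55.6% of all 32851 promoters. The TCF/LEF core was in 15 (48.4%) against 48.6%, the GC box in 12 (38.7%) against 32.7%, and the AP-1 element in 1, that of Itgax (3.23%), against 6.75%.

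The hemidesmosome receptor genes Itga6 and Itgb4 were both higher in Nfatc1+ cells. Itga6, the alpha subunit of the pair (chromosome 2, 71786886 to 71858427), was at 90.4 and 94.6 FPKM in the Nfatc1+ libraries and at 24.8 and 32.5 FPKM in the Shh+ libraries. The groups were far apart, and the ratio of means was 3.23 (difference 1.69 ± 0.12 SE, limma adjusted p = 7.97e-05). Itgb4, its beta subunit (chromosome 11, 115974725 to 116008412), was at 80.6 and 88.8 FPKM in Nfatc1+ cells, against 44.5 and 41.6 FPKM in Shh+ cells. It thus differed less than its partner, by 1.97-fold (difference 0.97 ± 0.07 SE, adjusted p = 0.000103). The ratio of Itga6 to Itgb4 FPKM was 1.09 ± 0.040 in Nfatc1+ cells and 0.669 ± 0.16 in Shh+ cells (SD, n = 2 each), a description with no test. Galk1, on the opposite strand, shares 56 bases with Itgb4. It was called in the other direction, at −0.34 (adjusted p = 0.0113), and the sources do not say whether reads were assigned by strand.

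Itga3, which pairs with beta1 to bind the same laminins, did not follow Itga6. It was at 37.8 and 39.3 FPKM in Nfatc1+ cells, against 41.5 and 43.0 FPKM in Shh+ cells. Both Shh+ libraries lay above both Nfatc1+ libraries, but by a small step that was not called (difference −0.13, 95% interval −0.28 to 0.02, adjusted p = 0.154). The leading alpha subunit therefore was not the same gene in both populations. Itga6 made 52.7% and 52.8% of the summed integrin alpha FPKM in the Nfatc1+ libraries, against 27.9% and 32.6% in the Shh+ libraries. Itga3 made 22.1% and 21.9% of it in the Nfatc1+ libraries, against 46.6% and 43.2% in the Shh+ libraries. The ratio of Itga6 to Itga3 was 2.40 ± 0.015 in Nfatc1+ cells and 0.677 ± 0.11 in Shh+ cells (SD, n = 2 each). Below these leaders, the order of alpha subunits was Itgav, Itga1, Itga5 and Itga2 in Nfatc1+ cells, without overlap between neighbours, and then Itga8 and Itga4, whose libraries overlapped. In Shh+ cells it was Itgav, Itga5, Itga2 and Itga9, again without overlap, while no other alpha subunit exceeded 1.13 FPKM in a library. The laminin receptor subunit Itga7 was below the test's limit, at 0.513 and 0.770 FPKM in Nfatc1+ cells and 0.192 and 0.116 FPKM in Shh+ cells.

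**Figure D2:**
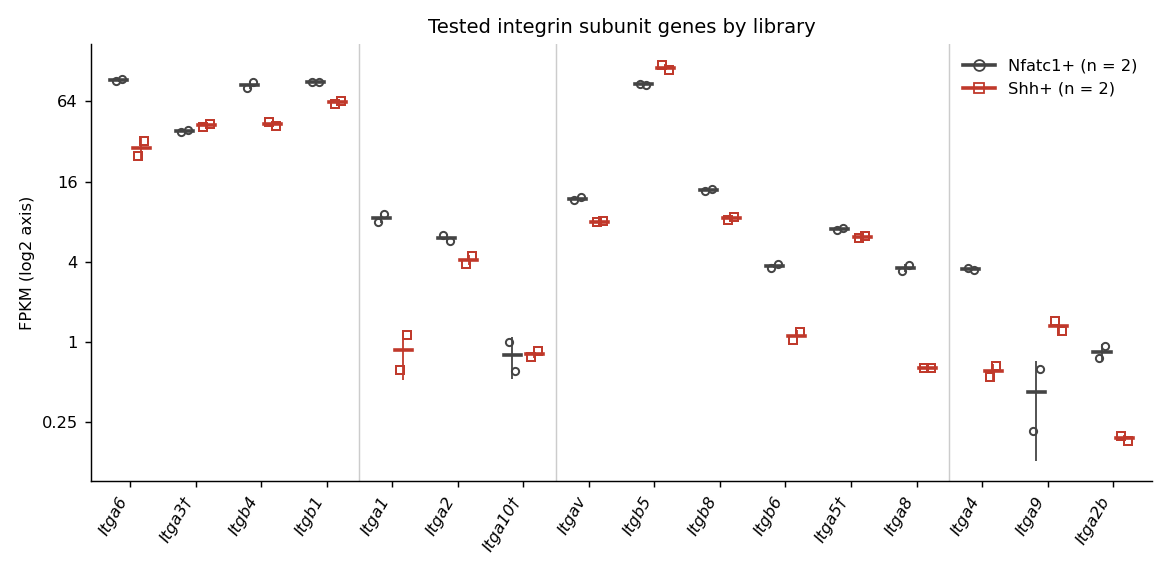
FPKM of the 16 tested integrin subunit genes, on a log2 axis, in the 2 Nfatc1+ libraries (circles) and the 2 Shh+ libraries (squares). Thick lines are means, thin bars show the SD (n = 2), and genes with a dagger were not called. From left to right, the blocks hold laminin-binding subunits with Itgb1, collagen-binding subunits, the RGD and alphav family, and Itga4, Itga9 and Itga2b. Itga1 shows the widest gap, its mean being 8.56 FPKM in Nfatc1+ cells, against 0.876 FPKM in Shh+ cells.

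Itgb1, the shared partner of most alpha subunits listed here, was at 89.7 and 90.2 FPKM in Nfatc1+ cells and at 61.6 and 64.8 FPKM in Shh+ cells. The libraries of each population were close to each other, and the 1.42-fold difference was called (0.51 ± 0.06 SE, adjusted p = 0.000732). Dst and Plec, on the cytoskeletal side of the hemidesmosome, and the tetraspanin gene Cd151 moved the same way. Dst, whose epithelial product links alpha6beta4 to keratin, was at 36.6 and 36.7 FPKM in Nfatc1+ cells and 19.5 and 19.8 FPKM in Shh+ cells, a ratio of 1.86 (adjusted p = 9.85e-05). Plec, the gene of plectin, was at 37.7 and 41.9 FPKM in Nfatc1+ cells, against 29.7 and 26.1 FPKM in Shh+ cells (1.43-fold, adjusted p = 0.00516). Cd151, a tetraspanin that binds laminin receptors, was at 61.4 and 55.2 FPKM in Nfatc1+ cells and 40.4 and 42.1 FPKM in Shh+ cells (1.41-fold, adjusted p = 0.00230). All 3 genes were thus called higher in Nfatc1+ cells, where 18.9% of all tested genes were. Both Nfatc1+ libraries were above both Shh+ libraries for each of them, as for 35.1% of all tested genes. The values are per gene, so that epithelial and other forms of Dst and Plec were not separated.

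Collagen-binding subunits differed from each other. Itga1 (chromosome 13, 114958079 to 115101964) was at 8.01 and 9.11 FPKM in Nfatc1+ cells, against 0.621 and 1.13 FPKM in Shh+ cells. With a 9.77-fold ratio of means, it was the most different of the 29 genes tested (difference 2.74 ± 0.20 SE, adjusted p = 9.81e-05). Pelo, a gene of mRNA surveillance nested in Itga1 on the same strand, was also called higher in Nfatc1+ cells, by 0.61 (adjusted p = 0.000917), with 21.9 and 21.2 FPKM there and 13.9 and 14.0 FPKM in Shh+ cells. Its share in the Itga1 values was not tested. Itga2, the main collagen receptor subunit of basal keratinocytes, was at 6.36 and 5.77 FPKM in Nfatc1+ cells and 3.89 and 4.42 FPKM in Shh+ cells. The difference of 0.50 was called (adjusted p = 0.0208) but not without either Nfatc1+ library or Shh+ replicate 1 (adjusted p = 0.119, 0.0533 and 0.0851), nor with genes of all levels tested (0.0510). Itga10, known from cartilage, overlapped between populations (1.00 and 0.609 FPKM in Nfatc1+ cells, against 0.779 and 0.857 FPKM in Shh+ cells), and Itga11, known from fibroblasts, did not exceed 0.522 FPKM.

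Within the alphav family, which binds RGD sequences in fibronectin and vitronectin and in latent TGF-beta, the beta partners went in opposite directions. Itgav itself was at 11.6 and 12.3 FPKM in Nfatc1+ cells and 7.92 and 8.09 FPKM in Shh+ cells (difference 0.55, adjusted p = 0.00364). Itgb6 was at 3.62 and 3.83 FPKM in Nfatc1+ cells, against 1.04 and 1.20 FPKM in Shh+ cells, a 3.33-fold ratio (difference 1.39 ± 0.16 SE, adjusted p = 0.000663). Itgb8, another partner that activates latent TGF-beta, was at 13.7 and 14.1 FPKM in Nfatc1+ cells and 8.18 and 8.76 FPKM in Shh+ cells (1.64-fold, adjusted p = 0.00126). These 3 genes were higher in Nfatc1+ cells in every library. Itgb5, a vitronectin receptor subunit, was at 87.1 and 84.6 FPKM in Nfatc1+ cells and at 120.2 and 109.4 FPKM in Shh+ cells. It was 1.34-fold higher in Shh+ cells (difference −0.41 ± 0.07 SE, adjusted p = 0.00315). Itgb5 made 31.6% and 29.97% of the summed beta subunit FPKM in the Nfatc1+ libraries, and 50.9% and 48.3% in the Shh+ libraries, where it led. In Nfatc1+ cells Itgb1 stood just above Itgb5 and Itgb4, whose libraries overlapped. Itgb3 stayed at or below 0.380 FPKM. Among alpha subunits of this kind, Itga5, a fibronectin receptor subunit, was at 6.95 and 7.24 FPKM in Nfatc1+ cells and 6.02 and 6.29 FPKM in Shh+ cells and was not called (difference 0.19, 95% interval −0.06 to 0.44, adjusted p = 0.194).

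Itga8, Itga4 and Itga9 were low, and their libraries did not overlap between populations. Itga8 was at 3.41 and 3.77 FPKM in Nfatc1+ cells, against 0.643 and 0.638 FPKM in Shh+ cells (5.60-fold, difference 1.84 ± 0.17 SE, adjusted p = 0.000246). Itga4 was at 3.60 and 3.49 FPKM in Nfatc1+ cells, against 0.547 and 0.665 FPKM in Shh+ cells (5.85-fold, difference 1.87 ± 0.17 SE, adjusted p = 0.000249). Itga9, in the same subfamily as Itga4, went the other way, at 0.214 and 0.629 FPKM in Nfatc1+ cells and 1.44 and 1.20 FPKM in Shh+ cells. Its difference of −1.02 ± 0.28 SE was called (adjusted p = 0.0279) but not without Nfatc1+ replicate 1, Shh+ replicate 1 or Shh+ replicate 2 (adjusted p = 0.113, 0.112 and 0.0659). Of the 8 leukocyte and platelet subunits, only Itga2b, the platelet fibrinogen receptor subunit, passed the limit for testing, at 0.761 and 0.935 FPKM in Nfatc1+ cells and 0.198 and 0.183 FPKM in Shh+ cells. It was called (difference 0.96, adjusted p = 0.0195) but not without Shh+ replicate 1 or 2 (adjusted p = 0.0503 and 0.0555), and its mean fell under the limit without either Nfatc1+ library. Itgad, Itgax and Itgb2 were listed at 0 in all 4 libraries, and Itgae, Itgal, Itgam and Itgb7 did not exceed 0.535 FPKM.

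Among the laminin beta chains, calls went in opposite directions, while the main alpha chains were not called. Lama5, the alpha chain known to be needed for hair growth, was at 94.4 and 102.8 FPKM in Nfatc1+ cells and 108.2 and 98.2 FPKM in Shh+ cells. It led the alpha chains in every library with overlapping values (difference −0.07, 95% interval −0.24 to 0.11, adjusted p = 0.525). Lama3, an alpha chain of epithelial laminin, was at 40.5 and 38.5 FPKM in Nfatc1+ cells and 36.7 and 35.9 FPKM in Shh+ cells and was not called (difference 0.12, 95% interval −0.03 to 0.27, adjusted p = 0.188). Lamb3, a beta chain found in trimers with Lama3 (chromosome 1, 193294353 to 193343878), was at 120.4 and 119.8 FPKM in Nfatc1+ cells, against 64.9 and 58.6 FPKM in Shh+ cells, a 1.95-fold ratio (difference 0.96 ± 0.07 SE, adjusted p = 7.78e-05). The ratio of Lamb3 to Lama3 FPKM was 3.04 ± 0.096 in Nfatc1+ cells, against 1.70 ± 0.098 in Shh+ cells (SD, n = 2 each).

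**Figure D3:**
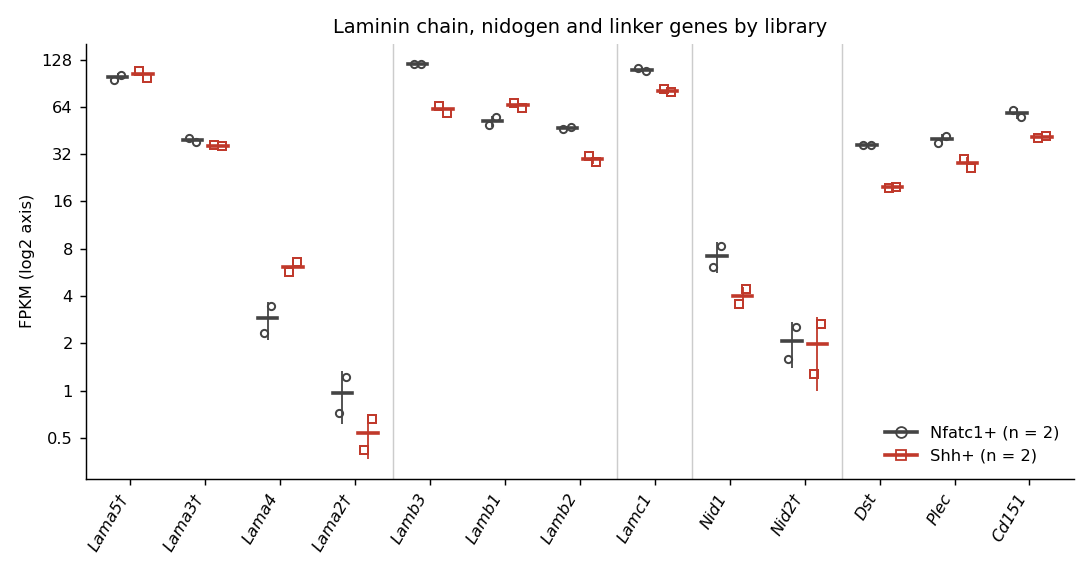
FPKM of the tested laminin chain, nidogen and linker genes, on a log2 axis, in the 2 Nfatc1+ libraries (circles) and the 2 Shh+ libraries (squares), in blocks of alpha chains, beta chains, Lamc1, nidogens and linkers. Thick lines are means, thin bars show the SD (n = 2), and genes with a dagger were not called. Lamb3 and Lamc1 have the higher means in Nfatc1+ cells, 120.1 and 110.7 FPKM, while Lamb1 has it in Shh+ cells, 65.5 FPKM.

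Lamc1 and the other beta chains were called as well, in both directions. Lamc1, the gamma chain of most laminins, was at 113.3 and 108.0 FPKM in Nfatc1+ cells and 83.0 and 79.7 FPKM in Shh+ cells (1.36-fold, adjusted p = 0.00145). Both Nfatc1+ libraries were above both Shh+ libraries. Lamb2, a beta chain prominent in muscle and kidney, was at 46.3 and 47.8 FPKM in Nfatc1+ cells and 31.1 and 28.3 FPKM in Shh+ cells (1.58-fold, adjusted p = 0.000567). Lamb1, the widespread beta chain, was at 48.8 and 55.0 FPKM in Nfatc1+ cells and 67.7 and 63.3 FPKM in Shh+ cells. The Shh+ mean was 1.26 times the Nfatc1+ mean (difference −0.34, adjusted p = 0.0150). This call ended without Nfatc1+ replicate 1 or Shh+ replicate 1 (adjusted p = 0.0753 and 0.0661). Lamb1 made 22.6% and 24.7% of the summed beta chain FPKM in the Nfatc1+ libraries and 41.4% and 42.1% in the Shh+ libraries, where it stood slightly above Lamb3 in the same library. Across Shh+ libraries the FPKM of Lamb1 and Lamb3 overlapped. Lamc3 and Lama1 were under the limit for testing and did not exceed 0.623 FPKM.

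**Figure D4:**
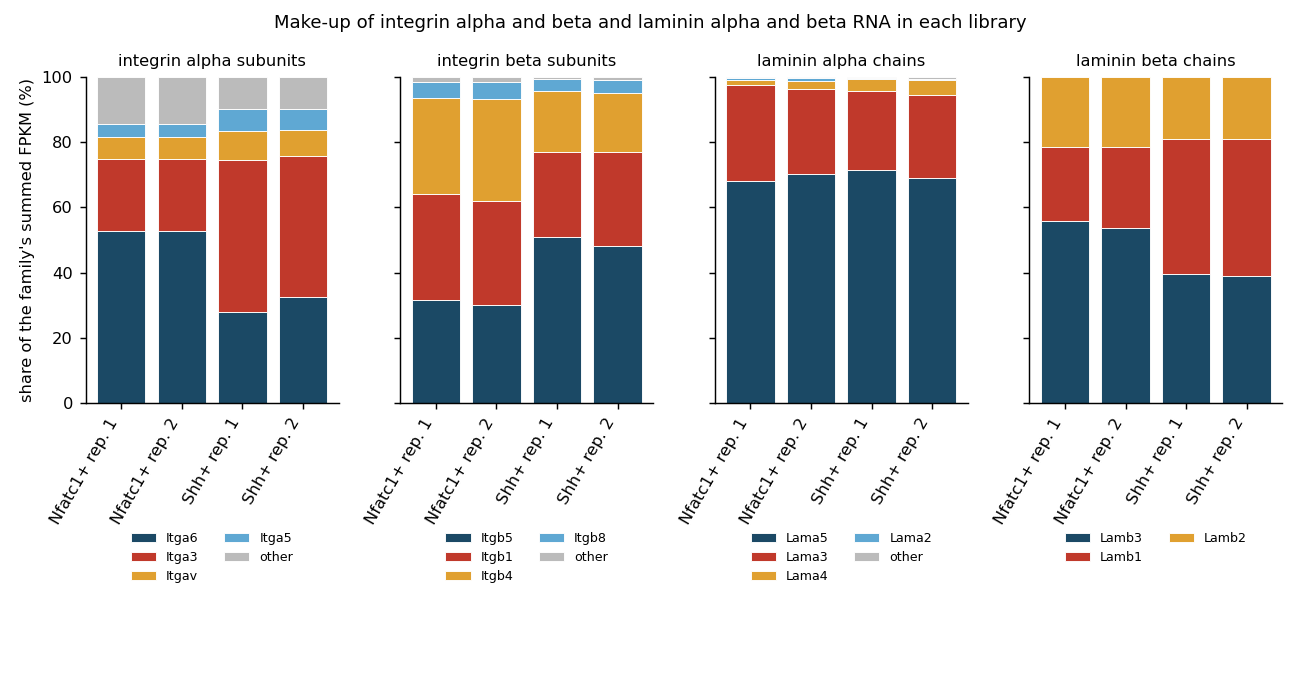
Make-up of the integrin alpha, integrin beta, laminin alpha and laminin beta RNA, as the share of each family's summed FPKM (%) in the 2 Nfatc1+ and 2 Shh+ libraries, with the lesser genes of a family pooled as other. Itga6 is the main integrin alpha subunit in Nfatc1+ libraries and Itga3 in Shh+ libraries, and Lama5 holds 68.3% and 70.2% of the laminin alpha FPKM in Nfatc1+ libraries and 71.4% and 69.2% in Shh+ libraries.

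The remaining laminin alpha chains and the nidogens were low. Lama4, an alpha chain of vessels and other mesenchymal tissue, was at 2.34 and 3.46 FPKM in Nfatc1+ cells and 5.72 and 6.60 FPKM in Shh+ cells. The Shh+ mean was 2.13 times the Nfatc1+ mean (difference −0.99, adjusted p = 0.00605). Lama2, the muscle and nerve alpha chain, was at 0.720 and 1.23 FPKM in Nfatc1+ cells and 0.417 and 0.657 FPKM in Shh+ cells and was not called (adjusted p = 0.192). Nid1, which bridges laminin and collagen networks, was at 6.09 and 8.35 FPKM in Nfatc1+ cells and 3.55 and 4.42 FPKM in Shh+ cells (difference 0.78, adjusted p = 0.0137), a call that ended without Nfatc1+ replicate 2 or Shh+ replicate 1 (adjusted p = 0.0710 and 0.0635). Nid2, a second nidogen, overlapped between populations, at 1.58 and 2.54 FPKM in Nfatc1+ cells and 1.28 and 2.66 FPKM in Shh+ cells. In all 4 of these genes replicate 2 was above replicate 1 within each population. The 11 dermal fibroblast and papilla markers summed to 295.5 and 567.1 FPKM in the Nfatc1+ libraries and 552.1 and 612.6 FPKM in the Shh+ libraries. Without Dcn the sums were 255.2 and 509.4 FPKM in the Nfatc1+ libraries and 225.8 and 187.9 FPKM in the Shh+ libraries, higher in replicate 2 of the Nfatc1+ pair and lower in replicate 2 of the Shh+ pair. Of the 10 dermal markers tested, Col3a1 (a fibrillar collagen, 2.11-fold, adjusted p = 0.0422) and Sox2 (a transcription factor of dermal papilla and Merkel cells, 6.02-fold, adjusted p = 0.000424) were called higher in Nfatc1+ cells, Dcn in Shh+ cells, and 7 were not called, with a median difference of 0.61. Dcn, a fibroblast proteoglycan gene in that list, averaged 49.0 ± 12.3 FPKM in Nfatc1+ cells, against 375.6 ± 69.6 FPKM for the Shh+ libraries (SD, n = 2 each), whereas 9 endothelial markers summed to between 13.1 and 15.0 FPKM in all libraries. The part of these other cells in the values of Lama2, Lama4, Nid1 and Nid2 was not tested.

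Of the 12 genes under the limit for testing, 3 were listed at 0 throughout and no other value exceeded 0.770 FPKM. Just inside the limit lay Itga2b, with a mean of 0.519 FPKM over the 4 libraries, and just outside it Lama1, with 0.481 FPKM. With genes of all levels tested, Itga7 was called higher in Nfatc1+ cells (difference 0.80, adjusted p = 0.0250), and the other 8 with any value were not called.

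Ligands of several receptors moved as well, and not always with the receptor. Of 17 tested ligand genes outside the laminins, 9 were higher in Nfatc1+ cells, 4 in Shh+ cells and 4 not called, with a median of 0.30. Over all tested genes, 18.9% were called higher in Nfatc1+ cells and 18.1% in Shh+ cells. Tgfbi, a matrix protein bound by several integrins, Thbs1, the gene of thrombospondin, and Tgfb3, whose latent form is held for release by alphav integrins, led in Nfatc1+ cells, at 10.1, 3.40 and 2.94 times the Shh+ level. Madcam1 and Icam1, adhesion molecules known from vessels and leukocyte traffic, and Fn1, the gene of fibronectin, led in Shh+ cells. Fn1 was at 44.1 and 54.1 FPKM in Nfatc1+ cells and at 332.5 and 304.5 FPKM in Shh+ cells (difference −2.69, adjusted p = 6.22e-06). Its receptor subunit Itga5 was not called. Itga4 and Itgav, subunits that also bind fibronectin, were called higher in Nfatc1+ cells (differences 1.87 and 0.55), opposite to Fn1. Madcam1 was at 0.0683 and 0.0736 FPKM in Nfatc1+ cells and 16.7 and 14.5 FPKM in Shh+ cells (difference −4.81, adjusted p = 4.20e-06), and Vcam1 was also higher in Shh+ cells (−1.17, adjusted p = 0.00891), whereas their receptor subunit Itga4 was higher in Nfatc1+ cells. Tnc, the tenascin bound by Itga9, was higher in Nfatc1+ cells (1.37, adjusted p = 4.68e-05), opposite to Itga9. Npnt, the nephronectin bound by Itga8, was at 51.9 and 51.2 FPKM in Nfatc1+ cells and 42.2 and 41.5 FPKM in Shh+ cells, on the side of its receptor (difference 0.30, adjusted p = 0.00817). Tgfb3 lay on the side of Itgb6 and Itgb8, while Tgfb1, in the same ligand list, was not called (difference 0.09, adjusted p = 0.423). These pairings were picked after the values were seen and carry no test.

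**Figure D5:**
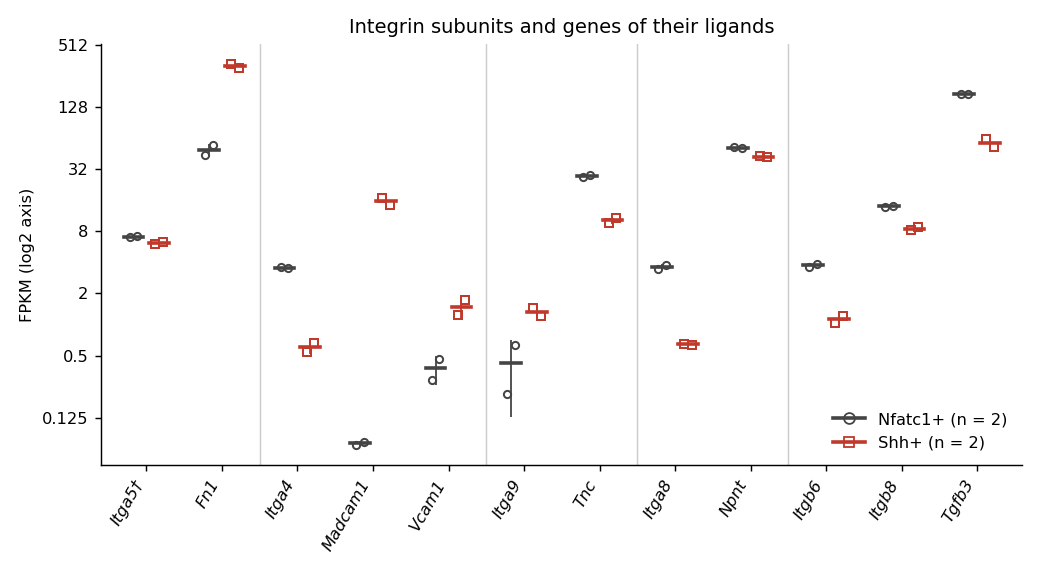
FPKM, on a log2 axis, of integrin subunit genes beside genes of ligands they bind, in the 2 Nfatc1+ libraries (circles) and the 2 Shh+ libraries (squares). Thick lines are means, thin bars show the SD (n = 2), and the gene with a dagger was not called. Fn1, Madcam1 and Vcam1 are higher in Shh+ cells beside Itga5, which was not called, and Itga4, which is higher in Nfatc1+ cells.

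The rest of the attachment machinery was mixed. For comparison, 18.9% of all tested genes were called higher in Nfatc1+ cells and 18.1% in Shh+ cells. Of 23 tested basement membrane and anchoring genes outside the 41, 13 were higher in Nfatc1+ cells, 5 in Shh+ cells and 5 not called, with a median of 0.28. Egflam (pikachurin, a dystroglycan ligand), Ntn4 (a netrin that binds laminin) and Smoc1 (a matricellular protein) led in Nfatc1+ cells, at 8.81, 2.99 and 4.17 times the Shh+ level. In Shh+ cells the leaders were Frem1 and Fras1, members of a complex that anchors epithelium to dermis during development, and Fbln1, the gene of fibulin. Frem1 averaged 3.82 ± 0.79 FPKM in Nfatc1+ cells, against 53.3 ± 2.7 FPKM in Shh+ cells (difference −3.65, adjusted p = 5.46e-06), and Fras1 averaged 10.3 ± 0.26 FPKM in Nfatc1+ cells, against 35.1 ± 3.0 FPKM for the Shh+ libraries (SD, n = 2 each; difference −1.72, adjusted p = 1.87e-05). Frem2, of the same complex, was not called, with averages of 79.1 FPKM in Nfatc1+ cells, against 72.1 FPKM for Shh+ cells. Among 25 tested adaptors and focal adhesion genes, 11 were higher in Nfatc1+ cells, 3 in Shh+ cells and 11 not called, with a median of 0.13. The tensins Tns1 and Tns4, which join integrin tails to actin or signalling proteins, and Vcl, the gene of vinculin, led in Nfatc1+ cells, at 6.43, 5.59 and 1.58 times the Shh+ level. Ptk2b (a focal adhesion kinase relative), Fermt1 (kindlin of epithelial cells) and Zyx (zyxin) led in Shh+ cells, with differences of −1.44, −0.61 and −0.57. Of 11 tetraspanins and other partners, 4 were higher in Nfatc1+ cells, none in Shh+ cells and 7 not called, with a median of 0.13. Calls among all tested genes were about as frequent, at 37.0% in either direction. Cd44, the hyaluronan receptor, led with 183.2 ± 3.3 FPKM in Nfatc1+ cells, against 27.6 ± 1.5 FPKM in Shh+ cells (difference 2.71, adjusted p = 2.57e-06), followed by Cd47 at 1.73-fold and the tetraspanin Cd9 at 1.55-fold.

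Other gene groups moved with the same contrast. As above, 18.9% of all tested genes were called higher in Nfatc1+ cells and 18.1% in Shh+ cells. Among 13 genes of the basal epidermis, 10 were higher in Nfatc1+ cells and 2, Sox6 and Ccnd2, in Shh+ cells, with a median of 0.72. Tgfbi, Dlk2 (a Notch pathway regulator) and Igfbp2 (an IGF-binding protein) led in Nfatc1+ cells. Of 12 tested suprabasal genes, 7 were higher in Shh+ cells and 2, Krtdap and Dsg1a, in Nfatc1+ cells, with a median of −0.56, and Lor, Grhl3 and Cnfn, genes of the forming barrier, led in Shh+ cells. Immediate early and stress genes are known to respond to tissue dissociation, and of the 23 listed here 18 had more RNA in Nfatc1+ cells, led by Fosb, Fos and Egr2, and 3, the heat shock genes Hsph1, Hsp90aa1 and Hspa8, in Shh+ cells, with a median of 0.57. The part of digestion in the attachment genes was not tested. The keratinocyte markers summed to 8920 and 8761 FPKM in Nfatc1+ cells and 6630 and 6442 FPKM in Shh+ cells. Epithelial RNA was thus abundant in both sorts, which does not show that other cells were absent. Shh was at 10.5 and 11.7 FPKM in Nfatc1+ cells and 143.9 and 144.7 FPKM in Shh+ cells, and Nfatc1 at 112.3 and 116.1 FPKM in Nfatc1+ cells and 25.3 and 20.1 FPKM in Shh+ cells, as labelled. Of markers of other cells, Merkel cell genes were called higher in Nfatc1+ cells for 7 of 9 tested (summed FPKM 60.7 and 68.9 in Nfatc1+ and 24.8 and 29.7 in Shh+ libraries), while melanocyte genes varied between replicates (32.2 and 67.3 in Nfatc1+ libraries, 8.20 and 46.1 in Shh+ libraries) with 1 of 10 called. Leukocyte markers summed to between 7.51 and 13.4 FPKM, with Cd207 and Cd3e at 0, and 1 of 6 tested, the macrophage gene Aif1, was called. Aif1 was at 0.963 and 0.648 FPKM in Nfatc1+ cells, against 2.73 and 4.19 FPKM in Shh+ cells (difference −1.59, adjusted p = 0.00235). Muscle and pericyte markers gave no call among 2 tested. Cspg4 was at 35.3 and 36.7 FPKM in Nfatc1+ cells and 35.8 and 27.8 FPKM in Shh+ cells, and none of the other 7 exceeded 1.66 FPKM. Schwann cell and nerve markers summed to between 13.9 and 21.0 FPKM with 1 of 5 called, higher in Shh+ cells.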

How the data were processed

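RNA was sequenced from 2 libraries of sorted Nfatc1+ cells and 2 of Shh+ cells. The authors mapped reads to GRCm38/mm10 with TopHat2 (2.0.13) and computed FPKM with Cufflinks (2.2.1), as listed in the methods and the submitters' processing notes. HTSeq is also listed there, without a role. The gene annotation used is not given in the sources used here. The deposited FPKM values come without read counts, and depth is known only in relative terms. It was read from the most frequent ratio of Nfatc1+ replicate 1 to each other library, among genes below 0.3 FPKM in both. Relative to Nfatc1+ replicate 1, depth was about 0.914, 0.914 and 0.570 in Nfatc1+ replicate 2, Shh+ replicate 1 and Shh+ replicate 2. Only 25.2%, 23.3% and 22.8% of these genes lay near the ratio used, so the depths are rough. They make low values of Shh+ replicate 2 the least certain.

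Genes averaging 0.5 FPKM or more were tested on log2(FPKM + 0.5) with limma (3.58.1, R 4.3.3; empirical Bayes with a trend, all 4 libraries, no covariate) and Benjamini-Hochberg adjustment over all 12750 genes. FPKM is not a count, and no count model was used. The fit was tested on simulated data. Alternatives were other pseudocounts, filters and scalings, no trend, a replicate block, a threshold of the study's form and each library left out. The text accounts for 41 genes, with values per library for those at 20 FPKM or more in either population or called with a difference of at least 1, and names from each list of related genes the 3 called genes of largest difference per direction. The genes and all lists were chosen with earlier results of these data known. One gene that the symbols match is not reported here. Some genes are in more than 1 list. Gene positions are from RefSeq (GRCm38), gene strands from GENCODE (GRCm38) and promoters from RefSeq (GRCm38.p6).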

Additional observations from a re-analysis of the deposited data

How the results depend on the processing

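The counts of 18 attachment genes higher in Nfatc1+ cells and 4 higher in Shh+ cells were the same with pseudocounts of 0.1 and 1 FPKM, without a filter, and after upper-quartile or median-of-ratios scaling. Without the filter 38 attachment genes were tested, and the genes called were not all the same, as Itga7 was gained and Itga2 lost. The counts were 17 and 3 of 25 genes at a mean of at least 1 FPKM, and 18 and 3 without the trend, where Lamb1 was lost (adjusted p = 0.0628). An unadjusted p under 0.01 with a fold above 2, the form of the study's threshold, gave 5 and 1, and over all genes 734 and 600, against 2406 and 2310. Leaving out 1 library gave 15 to 17 genes higher in Nfatc1+ cells and 2 to 4 higher in Shh+ cells, with 2 without Nfatc1+ replicate 1 or Shh+ replicate 1. The lone library left in a population is then assumed to vary like the others. Signs turned only in genes that were not called. Itga10 ranged between −0.25 and 0.19 with 1 library left out, at 0.19 without Nfatc1+ replicate 2 and 0.01 without Shh+ replicate 2. Nid2 ranged between −0.33 and 0.50, at −0.18 without Nfatc1+ replicate 2 and −0.33 without Shh+ replicate 1, and Lama5 between −0.14 and 0.0042, the last without Shh+ replicate 1. The cause was not tested.

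Libraries of the 2 populations share replicate numbers, but no source says that a number marks a shared litter or day, and the replicate differences correlated at 0.114 over 12750 genes, 0.149 over 7257 genes at 10 FPKM or more and 0.308 over the 29 attachment genes. With the replicate block the counts stayed at 18 and 4, and over all genes were 2523 and 2424. Over the 29 genes, replicate differences had an SD of 0.23 in Nfatc1+ and 0.23 in Shh+ cells, against 0.83 between populations. With unknown depth, genes near 0.5 FPKM carry the least certain values.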
